A study of Mus musculus with 8 samples.

Results

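LRP4 is a single-pass membrane receptor of the low-density lipoprotein (LDL) receptor family. The genes described here were Lrp4, 7 LDL receptor related genes (Lrp1, Lrp1b, Lrp2, Lrp3, Lrp10, Lrp11 and Lrp12), the LRP4 ligand Agrn and the LRP4 partner kinase Musk, which made 10 genes of the 48709 listed in the count data. They were selected by name, but the choice was made with a measured value in view, namely the higher Lrp4 level in the mutant cortex of these same libraries. The difference in Lrp4 is therefore given as a description without a test, and it supports nothing else in the text. The other genes were tested in a model fitted over all genes.

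RNA-seq was performed on whole cortical tissue of mice at postnatal day 1 (P1), with 4 control libraries and 4 libraries from dcKO_Nex-Cre mutants, in which the chromatin remodelling subunits BAF155 (Smarcc1) and BAF170 (Smarcc2) are both conditionally deleted. Per the study's methods, the controls carried 1 floxed and 1 wild-type allele of each gene without Cre, and all mice were on a C57BL6/J background. Nex-Cre is active in postmitotic projection neurons of the forebrain, and cells of other types in the tissue are not its target. Nothing in the labels says that the libraries came from separate animals, and p-values then measure the spread between these libraries only.

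The libraries held between 17958641 and 35191912 counts. Smarcc1 and Smarcc2 were lower in the mutants, at 69.2% and 56.9% of the control mean. The share of counts on mitochondrial genes was 6.87% in control replicate 2 and 6.15% in dcKO_Nex-Cre replicate 4, and between 2.33% and 4.24% in the other 6 libraries. A lane tag in the names of the deposited count data separates dcKO_Nex-Cre replicates 3 and 4 from the other 6 libraries. The log2 fold changes of Lrp4, Lrp1, Lrp1b, Lrp3 and Mylip are therefore also given without these replicates. Of 10 lists of cell type markers, the summed level of 7 overlapped between the groups. Within these 7, edgeR called C1qb (microglia, 138% of control, adjusted p = 0.0422) and Ppp1r1b (striatum, 194% of control, adjusted p = 0.040) higher. The other microglia markers ran from 67.0% (P2ry12, every mutant below every control, edgeR adjusted p = 0.0596) to 124% (C1qa) of control. The other tested genes of the striatum and thalamus list ran from 80.3% (Lhx9) to 135% (Drd2) of control. Neither list thus moved in one direction. The striatum and thalamus list summed to 195 counts-per-million (CPM) in dcKO_Nex-Cre replicate 2 and to between 77.5 and 105 CPM in the other 7 libraries, and the meninges list to 76.0 CPM in that library and to between 12.8 and 37.9 CPM in the others. The 8 excitatory neuron markers summed to between 1606 and 1869 CPM in controls and between 1364 and 1594 CPM in mutants, and 1 of them, Neurod6, was called lower. The 5 oligodendrocyte lineage markers summed to between 173 and 252.0 CPM in controls and between 252.1 and 308 CPM in mutants, and 1 of them, Cspg4, was called higher. The skeletal muscle list is given beside Musk. In bulk tissue, fewer cells of a type and less RNA per cell cannot be told apart.

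Receptors of the LDL receptor family bind extracellular ligands through clustered cysteine-rich repeats and mostly carry them into the cell through clathrin-coated pits. At the neuromuscular junction, nerve-derived agrin, a heparan sulfate proteoglycan, binds LRP4 on the muscle surface, and LRP4 then activates the receptor tyrosine kinase MuSK, which leads to clustering of acetylcholine receptors under the nerve ending. LRP4 also binds secreted Wnt antagonists such as sclerostin and is expressed in brain, where astrocytes are among the cells known to make it.

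Lrp4 (ENSMUSG00000027253; GRCm38 chromosome 2, 91457511 to 91513779, plus strand) measured 23.4, 20.96, 25.8 and 24.0 CPM in control replicates 1 to 4. It measured 41.6, 38.3, 44.8 and 27.2 CPM in dcKO_Nex-Cre replicates 1 to 4. All 4 mutant libraries thus lay above all 4 controls, with replicate 4 only slightly above the highest control. The group means were 23.6 ± 2.01 CPM in controls and 38.0 ± 7.64 CPM in mutants (SD, n = 4 each), so that Lrp4 stood at 161% of control. The fitted log2 fold change was 0.69 (SE 0.14, 95% interval 0.39 to 0.996). These levels rested on 383 to 619 reads in each control and on 485 to 1435 reads in each mutant library. Without dcKO_Nex-Cre replicate 4 the log2 fold change was 0.82, and with lane tag 2 alone (4 controls and dcKO_Nex-Cre replicates 1 and 2) it was 0.76. Without the library of each group with the largest mitochondrial share it was 0.77. The share in the difference of the higher oligodendrocyte lineage markers and the lower excitatory neuron markers was not tested.

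Markers of radial glia and astrocytes were read beside Lrp4, since astrocytes are known to make it. The 8 markers summed to between 2324 and 2782 CPM in controls and to between 1955 and 2524 CPM in mutants, and edgeR called none of them. Gfap, an astrocyte filament protein, stood at 127% of control (log2 fold change 0.34, edgeR adjusted p = 0.256) and Aldoc, a glycolytic enzyme of astrocytes, at 130% (log2 fold change 0.37, edgeR adjusted p = 0.291). Sox9, a glial transcription factor, stood at 126% (log2 fold change 0.34, edgeR adjusted p = 0.435). Slc1a3 stood at 108% and Hes5 at 104% of control, against 92.7% for Aqp4 and 78.3% for Aldh1l1. As for Lrp4, the lowest mutant level of Gfap, Aldoc and Sox9 was in dcKO_Nex-Cre replicate 4, and the highest of Gfap and Aldoc was in replicate 3. Slc1a3 and Aldh1l1 were also lowest among the mutants in replicate 4, at 458 and 19.6 CPM, so this pattern was not limited to the markers that stood higher. Fabp7, a lipid-binding protein of radial glia, stood at 70.9% of control with groups that did not overlap (log2 fold change -0.50, edgeR adjusted p = 0.113). The part of these markers in the Lrp4 difference was not tested.

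**Figure D1:**
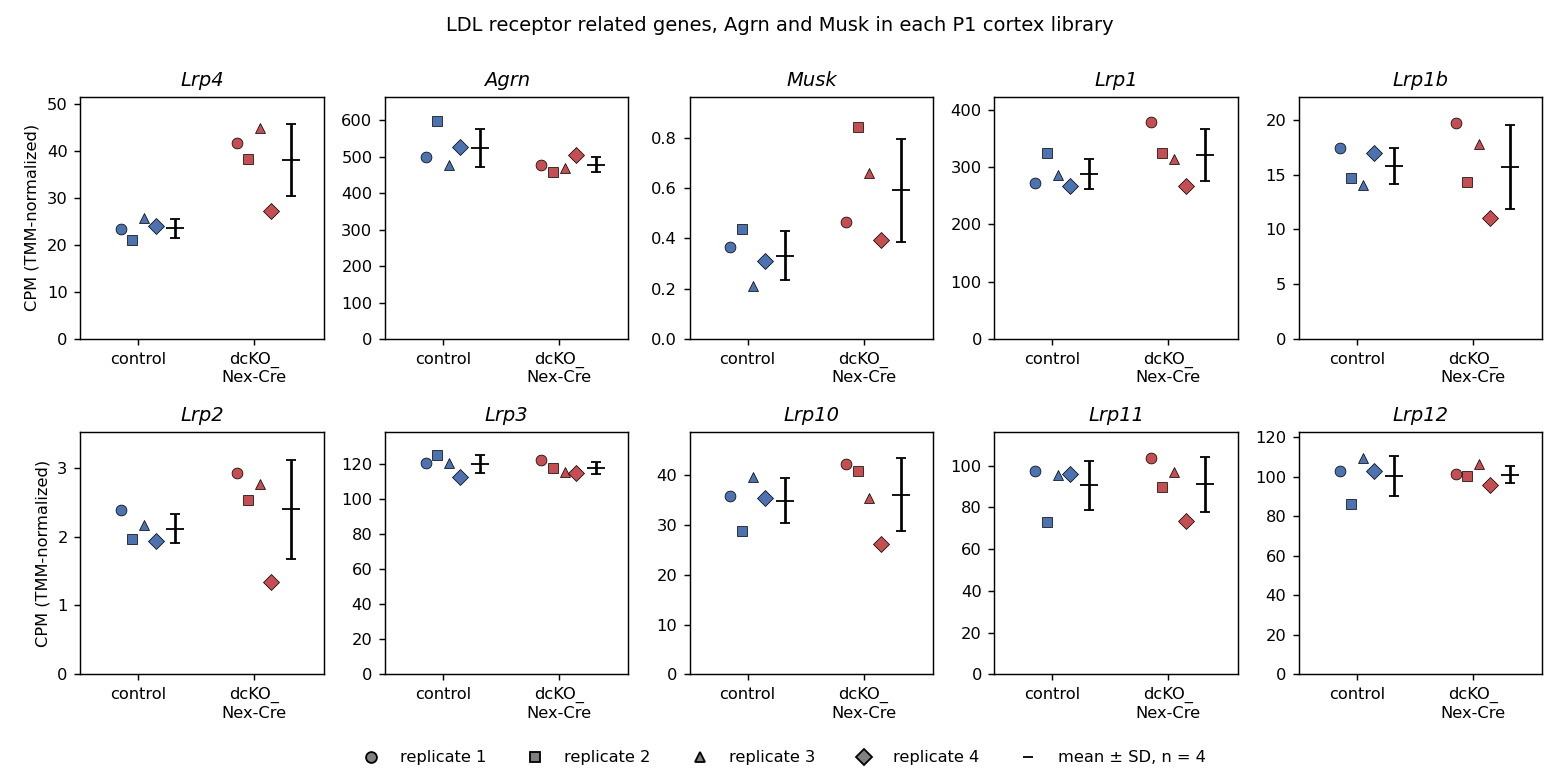
Level of each of the 10 genes in CPM (one panel a gene, vertical axis) in each of the 4 control and 4 dcKO_Nex-Cre libraries, with points for libraries and the group mean and SD. Lrp4 is the gene whose mutant libraries, at 27.2 to 44.8 CPM, all lie above the controls, at 20.96 to 25.8 CPM.

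Among 16287 genes tested with edgeR (quasi-likelihood F-test, p-values adjusted after Benjamini-Hochberg), 0.884% were called at an adjusted p under 0.05. Of these, 0.375% of all tested genes were higher and 0.510% were lower in the mutants. The groups did not overlap for 3.99% of tested genes with the mutants higher and for 4.01% with the mutants lower. Of the 10 genes, 9 passed the filter on low counts and Musk did not. Lrp4 was the 1 gene of the 9 that was called, and also the 1 whose groups did not overlap, in the direction that led to its choice, so nothing is read from either count. Leaving out any 1 library gave log2 fold changes of Lrp4 between 0.60 and 0.82. Of the 8 tested genes other than Lrp4, none was called, none had an unadjusted p under 0.05, and edgeR's smallest adjusted p was 0.513. Their fitted log2 fold changes ran from -0.13 to 0.20 with a median of 0.0074, beside a median of 0.0043 over all genes tested, and 5 were higher and 3 lower.

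Agrn (ENSMUSG00000041936; chromosome 4, 156165290 to 156197488, minus strand) encodes the ligand. It measured 498, 597, 476 and 526 CPM in control replicates 1 to 4 and 478, 458, 469 and 506 CPM in dcKO_Nex-Cre replicates 1 to 4, and the groups overlapped. The means were 525 ± 52.7 CPM and 478 ± 20.4 CPM (SD, n = 4 each). The log2 fold change was -0.13 (SE 0.09, 95% interval -0.32 to 0.057, edgeR adjusted p = 0.513), and it was -0.057 without control replicate 2, the library with the highest level. The highest Agrn level of each group was in the library with the group's largest mitochondrial share.

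The ratio of Agrn to Lrp4, each in CPM per kilobase of exon, was between 20.9 and 32.2 in controls, with a mean of 25.5 ± 4.81 (SD, n = 4). In the mutants it was between 11.9 and 21.03, with a mean of 14.9 ± 4.17. Its highest mutant value, in dcKO_Nex-Cre replicate 4, lay just above the lowest control value. The ratio contains Lrp4 and is likewise a description.

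Musk (ENSMUSG00000057280; chromosome 4, 58285960 to 58374303, plus strand) encodes the kinase through which LRP4 acts in muscle. It had 8, 8, 5 and 7 reads in control replicates 1 to 4 and 16, 22, 16 and 7 reads in dcKO_Nex-Cre replicates 1 to 4, which is 28 reads against 61 in all. The levels were 0.330 ± 0.097 CPM in controls and 0.590 ± 0.203 CPM in mutants (SD, n = 4 each), with dcKO_Nex-Cre replicate 4, at 0.393 CPM, below control replicate 2, at 0.438 CPM. With no filter on low counts the log2 fold change was 0.87 (edgeR adjusted p = 0.493), so a difference was not detectable at this depth. The 8 skeletal muscle markers summed to between 6.02 and 7.10 CPM in controls and to between 4.38 and 5.90 CPM in mutants, with no gene of the list called. None was at 0 in all libraries, and Myog, Myod1 and Ckm had at most 2 reads in any library. The part of muscle tissue in the Musk reads was not tested.

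The large endocytic receptors come next. Lrp1 (ENSMUSG00000040249; chromosome 10, 127538161 to 127621148, minus strand), the receptor for apolipoprotein E and many protease complexes, measured 273, 325, 286 and 267 CPM in control replicates 1 to 4. It measured 379, 325, 314 and 268 CPM in dcKO_Nex-Cre replicates 1 to 4, so that replicate 1 was the highest of all and replicate 4 lay at the level of the lowest control. The log2 fold change was 0.16 (SE 0.11, 95% interval -0.079 to 0.40, edgeR adjusted p = 0.531). Leaving out 1 library gave log2 fold changes from 0.073 (without dcKO_Nex-Cre replicate 1, edgeR adjusted p = 0.844) to 0.24 (without dcKO_Nex-Cre replicate 4, edgeR adjusted p = 0.119). With lane tag 2 alone the log2 fold change was 0.29 (edgeR adjusted p = 0.146). Without both control replicate 2 and dcKO_Nex-Cre replicate 4 it was 0.31 (edgeR adjusted p = 0.0265), in a fit that called 1794 of 16330 genes.

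Lrp1b (ENSMUSG00000049252; chromosome 2, 40595246 to 42653624, minus strand), a close relative of Lrp1, measured 17.4, 14.7, 14.1 and 17.0 CPM in control replicates 1 to 4. It measured 19.7, 14.3, 17.8 and 11.1 CPM in dcKO_Nex-Cre replicates 1 to 4, and both the highest and the lowest level were in mutants. The means of 15.8 ± 1.64 CPM and 15.7 ± 3.83 CPM (SD, n = 4 each) differed by a log2 fold change of -0.0017 (SE 0.16, 95% interval -0.36 to 0.36, edgeR adjusted p = 0.997).

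Lrp2 (ENSMUSG00000027070; chromosome 2, 69424340 to 69586065, minus strand) encodes megalin, an endocytic receptor of absorptive epithelia and of the embryonic neuroepithelium. It measured 2.38, 1.97, 2.17 and 1.94 CPM in control replicates 1 to 4 and 2.93, 2.53, 2.76 and 1.35 CPM in dcKO_Nex-Cre replicates 1 to 4. Mutant replicates 1 to 3 lay above every control and replicate 4 below every control. The log2 fold change was 0.20 (SE 0.23, 95% interval -0.32 to 0.71, edgeR adjusted p = 0.732). It was 0.084 without dcKO_Nex-Cre replicate 1, 0.13 without replicate 3 and 0.38 without replicate 4. Markers of choroid plexus and ependyma, tissue known to make megalin, summed to between 40.1 and 1371 CPM in controls and to between 17.2 and 589 CPM in mutants. Their part in the Lrp2 levels was not tested.

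The remaining members are smaller receptors whose ligands are less well known. Lrp3, Lrp10 and Lrp12 form a group of their own with CUB domains, and Lrp10 is known for its part in trafficking between the Golgi and endosomes. Lrp3 (ENSMUSG00000001802; chromosome 7, 35200027 to 35215498, minus strand) varied least, at 113 to 125 CPM in controls and 115 to 122 CPM in mutants (log2 fold change -0.026, SE 0.063, 95% interval -0.16 to 0.11, edgeR adjusted p = 0.880). Its exons share 377 bases with Slc7a10 on the opposite strand, and reads there may not be assigned to one of the genes with certainty. Lrp10 (ENSMUSG00000022175; chromosome 14, 54464137 to 54471497, plus strand) ranged from 28.8 to 39.6 CPM in controls and from 26.1 to 42.2 CPM in mutants. Its log2 fold change was 0.051 (SE 0.15, 95% interval -0.27 to 0.37, edgeR adjusted p = 0.902), and it shares 475 exonic bases with the antisense gene Gm10366.

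Lrp11 (ENSMUSG00000019796; chromosome 10, 7589800 to 7625483, plus strand) ranged from 73.1 to 97.6 CPM in controls and from 73.3 to 104 CPM in mutants. Its log2 fold change was 0.0065 (SE 0.12, 95% interval -0.26 to 0.27, edgeR adjusted p = 0.985). Lrp12 (ENSMUSG00000022305; chromosome 15, 39870589 to 39943994, minus strand) ranged from 86.4 to 110 CPM in controls and from 96.0 to 106 CPM in mutants, with a log2 fold change of 0.0083 (SE 0.082, 95% interval -0.17 to 0.19, edgeR adjusted p = 0.973). For Lrp4, Lrp10, Lrp11 and Lrp12, the lowest level of both groups was in the library with the group's largest mitochondrial share.

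**Figure D2:**
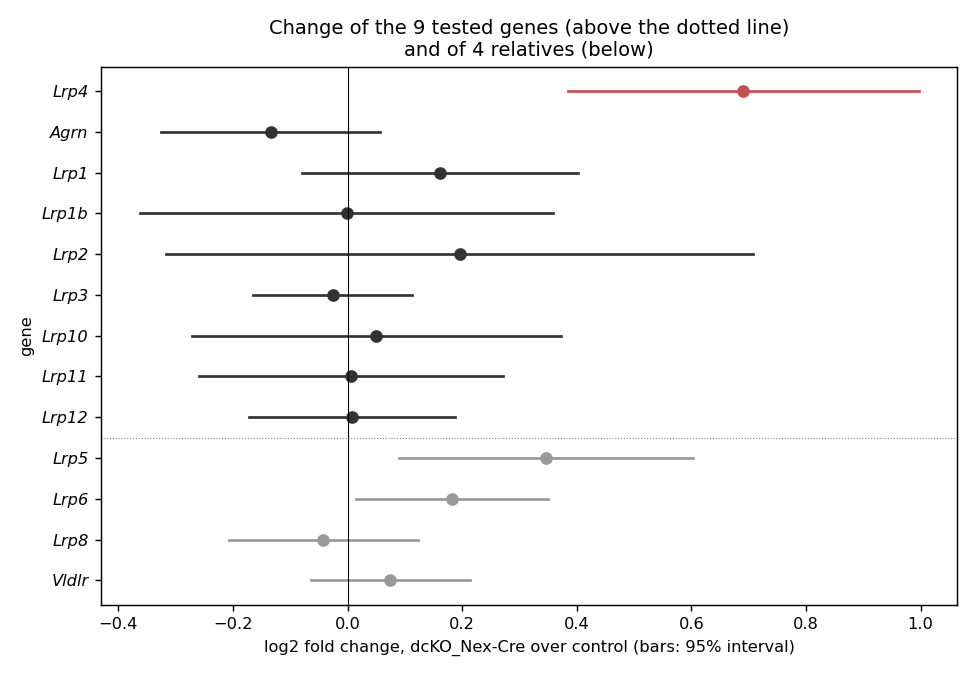
Fitted log2 fold change of dcKO_Nex-Cre over control (horizontal axis) for the 9 tested genes and, below the dotted line, 4 relatives from the pathway lists, with 95% intervals as bars and a line at 0 for equal levels. The interval of Lrp4, by whose difference the genes were chosen, runs from 0.39 to 0.996, and the intervals of the other 8 genes above the dotted line include 0.

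Levels were next compared between genes, as CPM per kilobase of merged exons. In controls Agrn was highest at 56.5 ± 5.68 CPM per kilobase (SD, n = 4), followed by Lrp11 at 26.5 ± 3.42, Lrp3 at 25.5 ± 1.095, Lrp12 at 21.9 ± 2.16 and Lrp1 at 16.2 ± 1.47 CPM per kilobase. Lrp10 came next at 7.83 ± 1.004 and Lrp4 after it at 2.24 ± 0.19 CPM per kilobase. Lrp1b, Lrp2 and Musk were the lowest at 0.665, 0.127 and 0.0875 CPM per kilobase. Lrp4 was the seventh in this order, also in the mutants, where it reached 3.61 ± 0.73 CPM per kilobase. Each gene lay above the next in 8 of 8 libraries except for 2 pairs of neighbours. Lrp11 lay above Lrp3 in 6 of 8 libraries, and Lrp2 lay above Musk in 5 of 8, so these neighbours did not differ beyond their spread. With the length of the longest transcript in place of merged exons Lrp3 came before Lrp11, in 5 of 8 libraries, and Lrp4 was again the seventh. By that length Lrp11 lay above Lrp12 in 7 of 8 libraries, Lrp12 above Lrp1 in 6 of 8 and Lrp2 above Musk in 4 of 8. Whether Lrp11 and Lrp12 each lay above the next gene in every library thus depended on the length used.

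**Figure D3:**
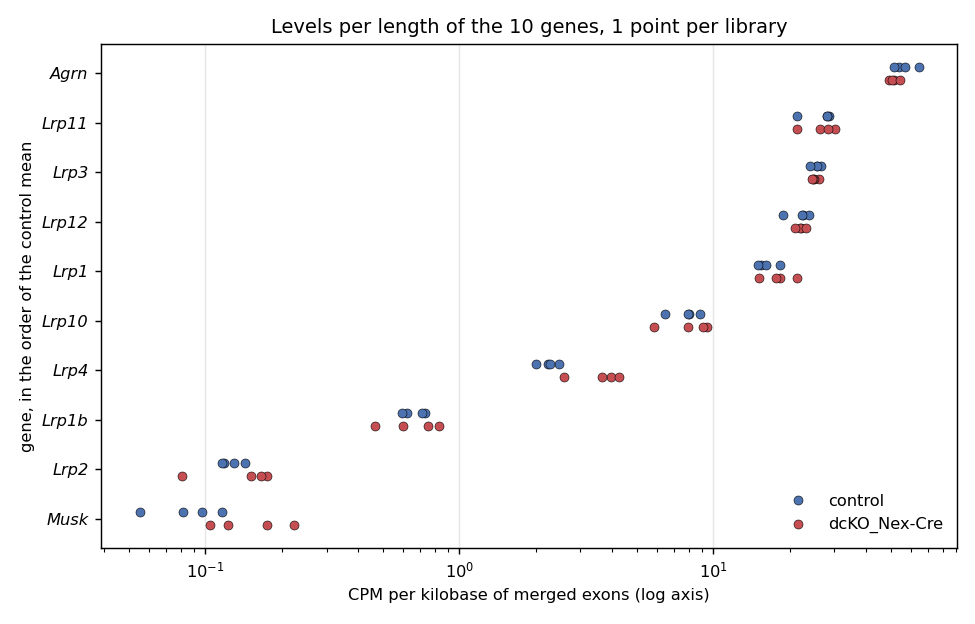
Level of each of the 10 genes in CPM per kilobase of merged exons (log axis) in the 4 control and 4 dcKO_Nex-Cre libraries, with genes in the order of their control means. Agrn stands at 56.5 and Lrp4 at 2.24 CPM per kilobase in controls.

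Lrp4 had 254 genes with a Pearson correlation above 0.9 among 12042 genes with at least 100 reads on average, computed on log2 CPM over the 8 libraries. The 5 most like it were Slco2a1 (a prostaglandin transporter, r = 0.992, Spearman's rho = 0.952), Pias1 (a SUMO ligase, r = 0.987, rho = 0.952), Sertm1 (r = 0.987, rho = 0.976), Pdk2 (a pyruvate dehydrogenase kinase, r = 0.979, rho = 0.929) and Hsd17b4 (a peroxisomal enzyme, r = 0.977, rho = 0.881). These values include the difference between the groups. After each group was centred on its mean, the 5 most like Lrp4 were Sel1l3 (r = 0.995), Nog (the BMP antagonist noggin, r = 0.990), Dpy19l3 (r = 0.989), Cd109 (r = 0.986) and Pdxdc1 (r = 0.985), and 389 genes were above 0.9. The first list and the second share no gene. Among the members, centred r with Lrp4 was 0.86 for Lrp11, 0.84 for Lrp10 and 0.79 for Lrp1b, and it was -0.61 for Agrn. All these values are descriptions over 8 points that share library, depth and RNA quality.

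The genes around Lrp4 were examined to place its difference on the chromosome, a window chosen after its value was seen. Within 250 kb, 13 of 20 listed genes were tested, 8 higher and 5 lower, and edgeR called none of them, with a smallest adjusted p of 0.218. Their log2 fold changes ran from -0.36 to 0.25. The nearest, 1110051M20Rik at 12807 bases and Ckap5 at 12983 bases, had log2 fold changes of 0.012 and 0.22.

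The pathway genes around these receptors were drawn from 4 lists with 81 genes, of which 72 were tested. Over the 72 genes 47 were higher and 25 lower, the median log2 fold change was 0.074 beside 0.0043 over all genes tested, and 1 was called, beside the background of 0.884%. That gene was Mylip, which encodes the ubiquitin ligase IDOL that marks receptors of this family, among them VLDLR and LRP8, for degradation. At an unadjusted edgeR p under 0.05, 6 of the 72 were higher and 4 lower, Mylip among the latter. Over all 16287 genes tested, 1073 were higher and 1149 lower at that limit. The counts at this limit given below for each list stand beside that background and are not read as a change.

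Mylip measured 13.1, 10.2, 10.5 and 11.4 CPM in control replicates 1 to 4 and 6.81, 8.16, 6.60 and 6.45 CPM in dcKO_Nex-Cre replicates 1 to 4. Every mutant library lay below every control. The means were 11.3 ± 1.31 CPM and 7.01 ± 0.78 CPM (SD, n = 4 each), and Mylip fell to 61.9% of control (log2 fold change -0.69, SE 0.13, edgeR adjusted p = 0.0348). This call was lost when any 1 library other than dcKO_Nex-Cre replicate 4 was left out, with log2 fold changes between -0.77 and -0.60, and with lane tag 2 alone (log2 fold change -0.60, edgeR adjusted p = 0.0742). Of the genes of IDOL targets, Lrp8, the apolipoprotein E and reelin receptor, measured 308 ± 12.9 CPM in controls and 299 ± 17.8 CPM in mutants (log2 fold change -0.04), and Vldlr, the other reelin receptor, had a log2 fold change of 0.07. Neither was called.

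Of 19 partners and targets of the agrin, LRP4 and MuSK pathway, 13 were tested and none was called by edgeR, 8 being higher and 5 lower with a median log2 fold change of 0.086, and 2 were lower at an unadjusted p under 0.05. Prss12 (neurotrypsin, the protease that cleaves agrin) measured 13.6 ± 2.55 CPM in controls and 17.0 ± 4.03 CPM in mutants (log2 fold change 0.33, edgeR adjusted p = 0.446). Chrna7, a nicotinic acetylcholine receptor subunit of neurons, measured 12.7, 11.7, 12.5 and 10.5 CPM in control replicates 1 to 4 and 10.5, 9.24, 10.03 and 8.76 CPM in dcKO_Nex-Cre replicates 1 to 4. The groups did not overlap but nearly met, and the log2 fold change of -0.30 did not pass the test (edgeR adjusted p = 0.272). Fyn, a Src family kinase and the most abundant gene of the list, had a log2 fold change of 0.13. Dok7, the cytoplasmic activator of MuSK, measured 9.87 ± 0.79 CPM and 9.18 ± 0.95 CPM. The other 6 genes of the list, among them the muscle receptor subunits Chrna1, Chrnd, Chrng and Chrne and their anchor Rapsn, had at most 12 reads in any library. Chrnd had 0 of the 189638371 reads of all libraries. Taken 1 library at a time, 0 reads allow at most about 3 reads at the 95% level by counting error alone. That is 0.0870 to 0.168 CPM, depending on the library, and the 0 over all libraries together allows a lower level.

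Of 14 relatives in the LDL receptor and sortilin families, 13 were tested, the median log2 fold change was 0.049 and edgeR called none, with 2 higher and 1 lower at an unadjusted p under 0.05. Lrp5, a Wnt co-receptor, measured 19.0, 17.6, 18.4 and 18.7 CPM in control replicates 1 to 4 and 26.1, 26.3, 23.0 and 18.2 CPM in dcKO_Nex-Cre replicates 1 to 4. As for Lrp4, mutant replicate 4 lay apart from the other mutants and near the controls. The log2 fold change was 0.35 (edgeR adjusted p = 0.224), and it was 0.45 without that library (edgeR adjusted p = 0.0154), in a fit that called 1278 genes, or 7.73% of those tested. Lrp6, the second Wnt co-receptor, had a log2 fold change of 0.18 (edgeR adjusted p = 0.329), and Sorcs1, a sorting receptor, one of -0.22 (edgeR adjusted p = 0.389).

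Of 21 ligands and binders of these receptors, 19 were tested, the median log2 fold change was 0.070 and edgeR called none, with 1 higher at an unadjusted p under 0.05. That gene was Thbs1, a matrix protein taken up through LRP1, at 39.7, 46.0, 41.9 and 32.8 CPM in control replicates 1 to 4 and 50.5, 49.3, 46.5 and 65.6 CPM in dcKO_Nex-Cre replicates 1 to 4. The groups did not overlap, and the log2 fold change of 0.40 did not pass the test (edgeR adjusted p = 0.204). Sostdc1, a secreted Wnt and BMP antagonist that binds LRP4, measured 5.71 ± 3.36 CPM in controls and 4.35 ± 0.93 CPM in mutants (log2 fold change -0.40, edgeR adjusted p = 0.639). Ptn, the growth factor pleiotrophin and the most abundant ligand, had a log2 fold change of 0.15.

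All 27 chaperones, endocytic adaptors and shedding proteases were tested, with a median log2 fold change of 0.075. Mylip was called lower, and 3 genes were higher and 1 was lower at an unadjusted p under 0.05. Dlg4 (the postsynaptic scaffold PSD-95, log2 fold change 0.13) was the most abundant, and Dab2, an endocytic adaptor, measured 12.1 ± 0.91 CPM in controls and 14.5 ± 3.15 CPM in mutants (log2 fold change 0.26, edgeR adjusted p = 0.449).

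**Figure D4:**
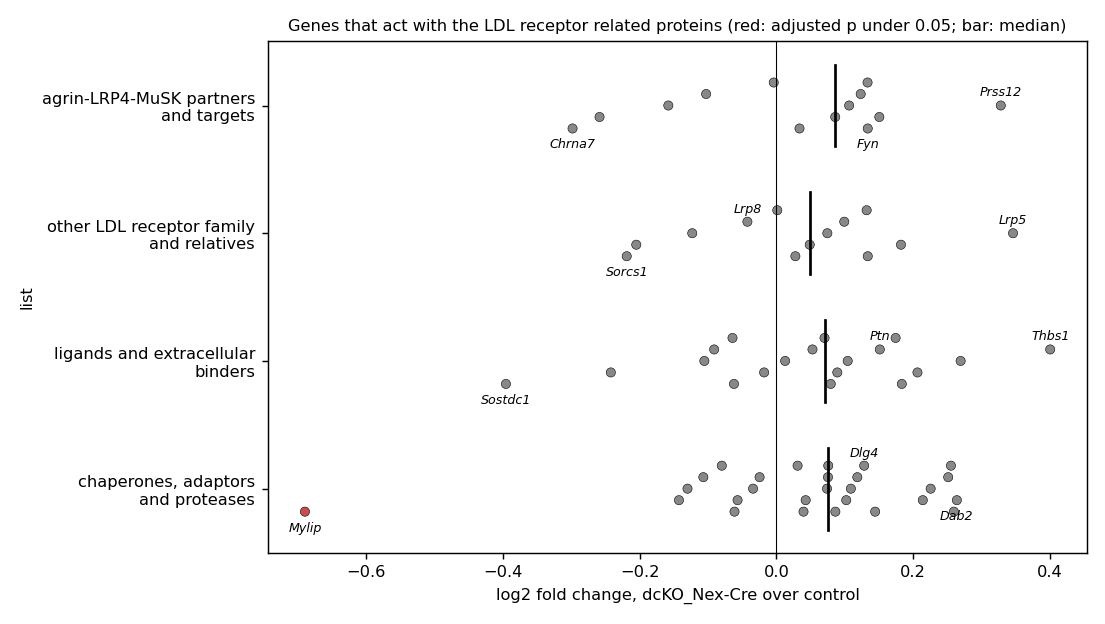
Fitted log2 fold change of dcKO_Nex-Cre over control (horizontal axis) for each of the 72 tested genes of the 4 pathway lists (rows), with a point a gene, a bar at the median of each list and red for an adjusted p under 0.05. The medians lie between 0.049 and 0.086, and Mylip, at -0.69, is the gene called.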

How the data were processed

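Total RNA of P1 cortex was sequenced after TruSeq library preparation. The authors deposited one table of raw counts per gene for each library. Their aligner, counter and its strand setting are not given in the sources used here, and the genome build is mm10 per the labels. Groups were taken from the sample labels. Of 48709 listed genes, 48349 matched GENCODE M21 (GRCm38), which gave positions and exon lengths. Genes were kept with edgeR's filterByExpr (16287 genes), scaled by TMM and fitted with edgeR 4.0.16 (robust quasi-likelihood test, R 4.3.3), with Benjamini-Hochberg adjustment over all tested genes and a threshold of 0.05. The biological coefficient of variation was 0.143. The procedure was tested on simulated data. CPM are counts-per-million of the TMM-scaled library size, and intervals of fold changes come from the fitted model. Counting intervals cover counting error only.

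The 10 genes, the pathway lists and the marker lists were chosen with earlier results of these data known. Named pathway genes were, in each list, the most abundant, the 2 with the largest fold change at a mean of at least 100 reads, and any gene called. The genes most like Lrp4 were the 5 of highest correlation, before and after centring. Vldlr, Lrp6, Dok7, the muscle receptor genes, the single marker genes and the genes of the closing observations were named after their values were seen. Some genes of the pathway lists are counted but not reported singly here. Alternatives were DESeq2 1.42.0, limma-voom 3.58.1, DESeq2 size factors, no filter, at least 10 counts in every library, a replicate block, lane tag 2 alone and leaving out each library. Leaving out the library of each group with the largest mitochondrial share was added after seeing the data. No 2 libraries of a group agreed within sampling noise (chi-square per degree of freedom at least 3.52).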

Additional observations from a re-analysis of the deposited data

Results flagged for a closer look

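Lrp11 stood at 73.1 CPM in control replicate 2, with the other 3 controls between 95.8 and 97.6 CPM. Lrp8 stood at 273 CPM in dcKO_Nex-Cre replicate 4, with the other 3 mutants between 305 and 311 CPM. In both cases the gap to the nearest library took more of the range of the group than Dixon's limit of 0.829 for 4 samples allows. These were 2 of 48 groups of 4 libraries examined, and chance passes this limit in about 1 of 20 groups. The 2 libraries are those with the largest mitochondrial share of their groups.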

How the results depend on the processing

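The number of the 9 tested genes called by edgeR was 1, which is Lrp4 and supports nothing, since its value led to the choice of the genes. It was 0 with limma-voom and with the replicate block, and 2 (with Lrp1) without the library of each group with the largest mitochondrial share. It ran from 0 to 1 when single libraries were left out, with 1 only without dcKO_Nex-Cre replicate 4. The number of pathway genes called was 1, 0 with the replicate block, 8 without the library of each group with the largest mitochondrial share, and 0 to 5 when single libraries were left out, with 5 without dcKO_Nex-Cre replicate 4 and 0 without any other. Of all genes tested, 1794 of 16330 were called without the 2 libraries of largest mitochondrial share. Without dcKO_Nex-Cre replicate 4, 1278 of 16539 (7.73%) were called. Leaving out any other single library gave 18 (without control replicate 1) to 87 (without control replicate 2) called genes. The replicate block gave 54, beside 144 in the main fit. The pathway counts stand beside these backgrounds and are not read as a change. The cause of the differences in the number of called genes was not tested. The log2 fold change of Lrp4 ran from 0.60 (without dcKO_Nex-Cre replicate 3) to 0.82. The replicate numbers did not pair the libraries (correlations of deviations -0.14 to 0.13, and 0 of 8 libraries closest to its own number), and the block gave 0.67 for Lrp4 and -0.69 for Mylip (edgeR adjusted p = 0.116). Changes near 0 turned sign: Lrp1b to 0.0088 with no filter, 0.11 with lane tag 2 alone and 0.10 without the libraries of largest mitochondrial share, Lrp3 to 0.0044 and 0.011 under the latter settings, and Lrp12 to -0.029 under the last. Leaving out single libraries gave -0.13 to 0.13 for Lrp1b, -0.054 to 0.0032 for Lrp3, -0.033 to 0.18 for Lrp10, -0.075 to 0.10 for Lrp11 and -0.049 to 0.054 for Lrp12. By Spearman's rho, 0 of the 5 genes most like Lrp4 stayed among the first 5, and 2 of 5 after centring. Depth limits Musk, which no fit that tested it called.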

Other observations

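Receptors of this family are shed by ADAM proteases, and their membrane stubs are then cut by the gamma-secretase complex. Adam17 measured 27.2 ± 0.51 CPM in controls and 32.4 ± 2.89 CPM in mutants, with groups that did not overlap (log2 fold change 0.25, edgeR adjusted p = 0.216). The gamma-secretase subunit gene Ncstn measured 87.6 ± 5.86 CPM in controls and 102 ± 5.96 CPM in mutants, again without overlap (log2 fold change 0.23, edgeR adjusted p = 0.216). Neither passed the test over all 8 libraries. Without dcKO_Nex-Cre replicate 4, Adam17 and Ncstn had log2 fold changes of 0.31 and 0.26 with edgeR adjusted p of 0.0300 and 0.0476. That fit called 1278 genes in all, or 7.73% of those tested.

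Without the library of each group with the largest mitochondrial share, edgeR called 8 genes of the pathway lists, in a fit that called 1794 of 16330 genes. Those called higher included Adam17, Lrp5, Lrp6, Ncstn, Src and Thbs1, and the gene called lower was Mylip. The count of 8 stands beside that background and is not read as a change of the pathway genes. Musk had a log2 fold change of 1.14 in that fit (edgeR adjusted p = 0.0883).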
